A study of Mus musculus with 6 samples.

Results

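The Hox genes are the homeobox transcription factor genes of the Hoxa, Hoxb, Hoxc and Hoxd clusters, and 39 of the 32719 genes counted in the libraries carry such a name, a cluster letter followed by a paralog group number between 1 and 13. All 39 were taken by that name, whatever their level or change. The set itself and the gene lists used below were chosen with earlier results of these data known. The libraries were made from jugular-nodose ganglia, where the sensory neurons of the vagus nerve have their cell bodies, and comprised 3 treated (Treat) and 3 control (Ctrl) samples. The protocol describes wild-type male C57BL/6J mice with subcutaneous osmotic pumps that delivered, for 2 weeks, PBS with S961 at 10 nmol per week in the treated arm and PBS alone in the other. S961 is a peptide that blocks the insulin receptor. All 6 libraries are labelled S961 under treatment, so the split into Treat and Ctrl rests on the sample titles. No age is given in the labels used here, and they do not say whether a library came from 1 animal or from pooled ganglia, so p-values measure the spread between these libraries, which may be technical.

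Hox proteins bind DNA through a homeodomain, usually together with cofactors of the Pbx, Meis and Prep families, and give cells a position along the body axis. Genes at the 3′ end of each cluster (low paralog numbers) are switched on early and far forward in the embryo, up to the hindbrain, and genes toward the 5′ end (high numbers) are switched on later and further back, to the lumbar and sacral levels. The vagal ganglia form at the level of the caudal hindbrain. Their nodose neurons come from epibranchial placodes, and their jugular neurons come from the neural crest and carry Prdm12.

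Paralogs can be alike enough in sequence to split reads between them. None of the 100-base windows of the annotated transcripts of Hoxb2 to Hoxb6, Hoxc4 or Hoxd1 occurred in another annotated gene. Exceptions among the well-counted genes were Hoxd3 and Hoxd4, of whose windows 6.91% and 9.5% occurred in each other and 50.9% and 31.6% in the annotated gene Gm28230, and Hoxa2 and Hoxa3, with 10.1% and 6.49% in Gm28308. Values of these 4 genes are therefore uncertain.

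The sequence shown is the 250 bases before a RefSeq start of Hoxb4 and Hoxd4, paralogs of group 4 on different chromosomes, on GRCm38.p6. It is shown because retinoic acid is a classical inducer of 3′ Hox genes, and 22 of the 39 members had such an entry. The Hoxb4 window lies at chr11:96318017-96318266 and the Hoxd4 window at chr2:74721728-74721977, both on the plus strand, and capitals mark matches to the searched motifs. The Hoxd4 window lies inside the annotated gene used for the levels here, which spans chr2:74711929-74729160.
Hoxb4: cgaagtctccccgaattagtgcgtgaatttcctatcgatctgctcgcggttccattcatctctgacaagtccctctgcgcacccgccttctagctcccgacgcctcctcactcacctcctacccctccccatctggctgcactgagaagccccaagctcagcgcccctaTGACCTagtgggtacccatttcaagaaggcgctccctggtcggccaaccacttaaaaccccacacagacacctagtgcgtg
Hoxd4: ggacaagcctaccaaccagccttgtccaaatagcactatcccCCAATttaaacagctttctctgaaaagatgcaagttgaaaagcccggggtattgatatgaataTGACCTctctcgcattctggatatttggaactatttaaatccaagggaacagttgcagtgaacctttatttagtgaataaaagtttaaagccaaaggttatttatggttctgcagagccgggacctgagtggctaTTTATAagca
A total of 4 short motifs were searched on both strands. The TATA box was spelled TATAAA, and 12.4% of all 32851 windows of this length held it. The CCAAT box was spelled by its name, and 33.8% of windows held it. For retinoic acid receptors only a part of the element they bind was searched. This part was spelled AGGTCA, and 14% of windows held it. The Pbx-Hox composite was spelled TGATNNAT, and 7.68% of windows held it. Of these motifs the Hoxb4 window held AGGTCA alone, and the Hoxd4 window held AGGTCA together with both box motifs. Whether either window holds a full retinoic acid element was not tested. AGGTCA also occurred in the windows of Hoxc4, Hoxd3, Hoxd8 and Hoxd10. No window of the remaining members with an entry held it, among them the low-numbered Hoxa2, Hoxa3, Hoxb1 and Hoxd1. A match describes the letters and is not a binding site.

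The libraries held 12898607 to 33522486 gene counts, with 46.6% to 52.3% of reads on genes. Treated replicate 3, the smallest, stood apart: its correlations with the other 5 libraries across genes were 0.911 to 0.94, against 0.966 to 0.988 among those 5. Many results are therefore given with and without it, or for each library. It also had the highest summed level of the fat cell markers, 472.4 CPM (counts scaled to library size), against 7.94 and 54.9 in the other treated and 11.1 to 37.7 in the control libraries. The same library was highest for fibroblast markers, 1731 CPM against 376 to 903.9 in the others, and for macrophage markers, 120.2 against 16.62 to 39.08. Endothelial markers were highest there too, at 82.65 CPM against 37.43 to 52.79, as were neutrophil markers, at 14.48 against at most 4.74. The source and tissue labels read spinal cord, whereas the cell labels name the ganglia. The oligodendrocyte markers Olig1, Olig2 and Mog had at most 5 counts in any library. Opalin, another gene of these cells, had 5, 0 and 16 counts in treated and 0 in all control libraries. Gfap, a gene of astrocytes and of peripheral glia, averaged 2.17 ± 1.58 CPM in treated and 0.730 ± 0.113 CPM in control ganglia, a log2 fold change of 1.54, or 0.83 without treated replicate 3 (edgeR adjusted p = 0.737 with all libraries). The 12 markers listed for spinal cord and other central nervous tissue, these genes among them, summed to 23.75, 24.73 and 26.09 CPM in treated libraries. In control libraries the sum was 20.01, 23.16 and 21.15 CPM, without overlap. Most of it came from Aqp4, at 11.3 CPM in treated and 11.35 CPM in control ganglia, and Slc1a2, at 9.86 and 8.30 CPM. The part of cells of such tissue in the Hox values was not tested. P2rx2, the gene of an ATP receptor of nodose neurons, averaged 139.5 ± 50.8 CPM in treated and 206.3 ± 1.12 CPM in control ganglia (SD, n = 3).

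The ganglia carried a Hox code of paralog groups 1 to 6, with almost no RNA from groups 7 to 13. Of the 18 members of groups 1 to 6, 13 had enough counts to be tested, compared with 1 of the 21 members of groups 7 to 13, which was Hoxd8. The 14 tested genes had at least 136 counts over the 6 libraries. The 25 others had at most 56 counts in sum and at most 23 in any library, and 3 of them, Hoxc12, Hoxd11 and Hoxd12, had 0 counts in every library. A count of 0 over a group allows up to 0.0401 CPM in treated and 0.0515 CPM in control ganglia, taking 3 counts as the limit. The 12 members of groups 10 to 13, which mark lumbar and sacral levels, had at most 14 counts each over all libraries.

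Levels were compared between genes as CPM per kilobase of annotated exon. Summed over all 39 genes, the level was 69.7, 70.4 and 40.4 CPM per kilobase in treated replicates 1, 2 and 3, against 97.1, 93.3 and 93.0 in control replicates 1, 2 and 3. All treated libraries lay below all control libraries, and treated replicate 3 was the lowest. Groups 4 to 6 made up 72.9 ± 8.57% of this sum in treated and 82.5 ± 1.35% in control ganglia (SD, n = 3). Groups 7 to 13 made up 2.25 ± 1.11% in treated and 1.36 ± 0.311% in control ganglia. The border after group 6 holds for these sums and not for every gene. Hoxd8 averaged 0.424 CPM per kilobase in control ganglia, beside 0.425 for Hoxd3 and 0.302 for Hoxa3. Groups 5 and 6 had 1 tested member each, Hoxb5 and Hoxb6. The Hoxb cluster alone held 80.6 ± 9.36% of the sum in treated and 89.2 ± 0.954% in control ganglia.

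**Figure D1:**
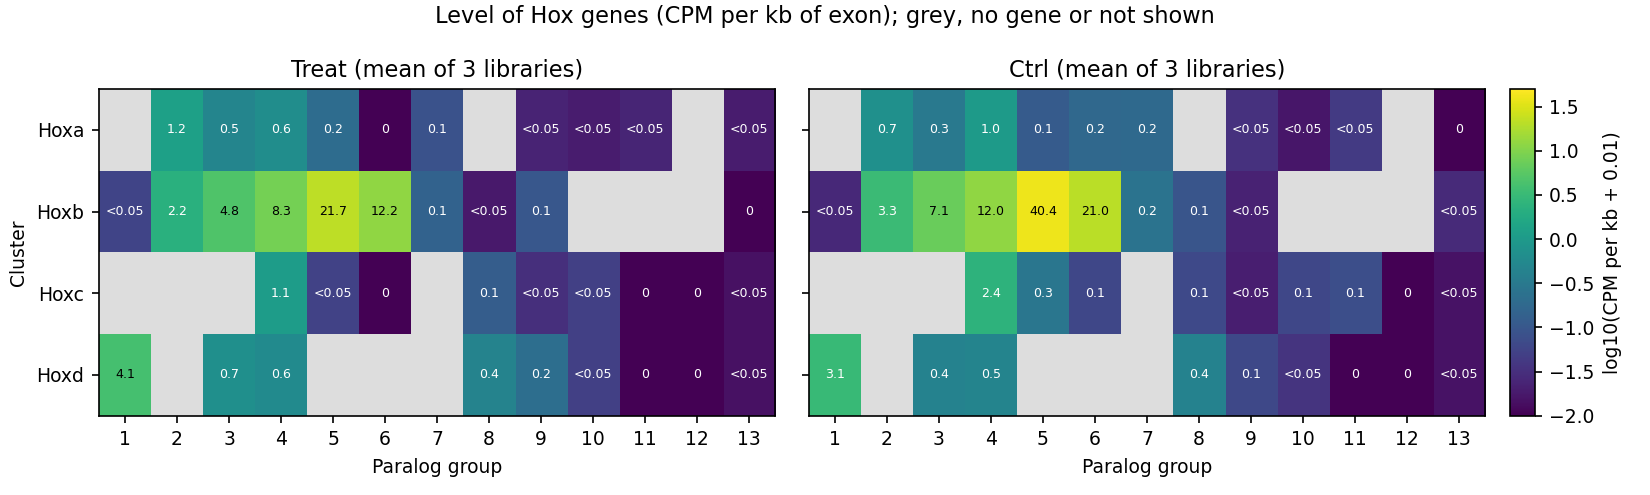
Mean level of Hox genes in CPM per kilobase of exon, in treated and in control ganglia, by cluster (rows) and paralog group (columns). Hoxb5 was the highest gene in both groups, at 21.7 CPM per kilobase in treated and 40.4 in control ganglia, and nearly all genes of groups 7 to 13 were close to 0.

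Hoxb5, a gene of the caudal hindbrain and of vagal neural crest known in the mouse to act on the receptor gene Ret in enteric nerve cells, was the most abundant Hox gene in every library. It lies at chr11:96303336-96306121 on the plus strand of GRCm38. It had 2481, 2345 and 327 counts in treated replicates 1, 2 and 3, against 2011, 2882 and 1649 in control replicates 1, 2 and 3. Scaled for depth and length, that was 26.5, 29.3 and 9.34 CPM per kilobase in treated and 41.4, 39.8 and 40.0 in control ganglia. The control libraries were close together, and all treated libraries were lower, replicate 3 by far the most. The antisense gene Hoxb5os covers 3.59% of its exon bases. In the control ganglia Hoxb5 ranked 992 among 16007 tested genes by this level. Its log2 fold change, treated over control, was -0.89 ± 0.40 (SE, n = 3 per group, edgeR quasi-likelihood unadjusted p = 0.0703, adjusted p = 0.738). Without treated replicate 3 it was -0.53 ± 0.08 (edgeR unadjusted p = 6.889e-05, adjusted p = 0.0824).

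Hoxb6, which acts in the patterning of the upper trunk, came next. Its counts were 925, 822 and 196 in the treated and 726, 1050 and 616 in the control libraries, or 14, 14.6 and 7.94 against 21.2, 20.6 and 21.2 CPM per kilobase. The groups did not overlap. The log2 fold change was -0.78 ± 0.21 (SE, n = 3 per group, edgeR unadjusted p = 0.00762, adjusted p = 0.654), and it was -0.55 without treated replicate 3 (edgeR adjusted p = 0.0897).

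Hoxb4, a group 4 gene of the caudal hindbrain and a known regulator of blood stem cells, had 743, 765 and 194 counts in the treated and 544, 800 and 455 in the control libraries. Its level was 8.62, 10.4 and 6.01 CPM per kilobase in treated and 12.2, 12.0 and 12.0 in control ganglia. Every treated library again lay below every control library. The log2 fold change was -0.52 ± 0.19 (SE, n = 3 per group, edgeR unadjusted p = 0.0241, adjusted p = 0.705), and it was -0.34 without treated replicate 3.

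Hoxb3, which in the mouse acts with its group 3 paralogs in the caudal hindbrain and the thyroid and thymus, had 798, 640 and 193 counts in treated and 534, 799 and 438 in control libraries. Its level was 5.59, 5.24 and 3.61 CPM per kilobase in treated and 7.20, 7.23 and 6.96 in control ganglia, with no overlap. The log2 fold change was -0.56 ± 0.17 (SE, n = 3 per group, edgeR unadjusted p = 0.0103, adjusted p = 0.664), and it was -0.40 without treated replicate 3. An annotated antisense gene, Hoxb3os, covers 52.9% of the exon bases of Hoxb3 and 27.3% of those of Hoxb2. The strand setting of the counting is not given in the sources used here, so reads of the 2 strands cannot be told apart. Hoxb2, which in the mouse is needed for facial motor neurons, had 325, 242 and 61 counts in treated and 198, 294 and 177 in control libraries, that is 2.19 ± 0.717 and 3.31 ± 0.105 CPM per kilobase. Its log2 fold change was -0.58 ± 0.25 (SE, n = 3 per group, edgeR unadjusted p = 0.0505, adjusted p = 0.737), and it was -0.35 without treated replicate 3.

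**Figure D2:**
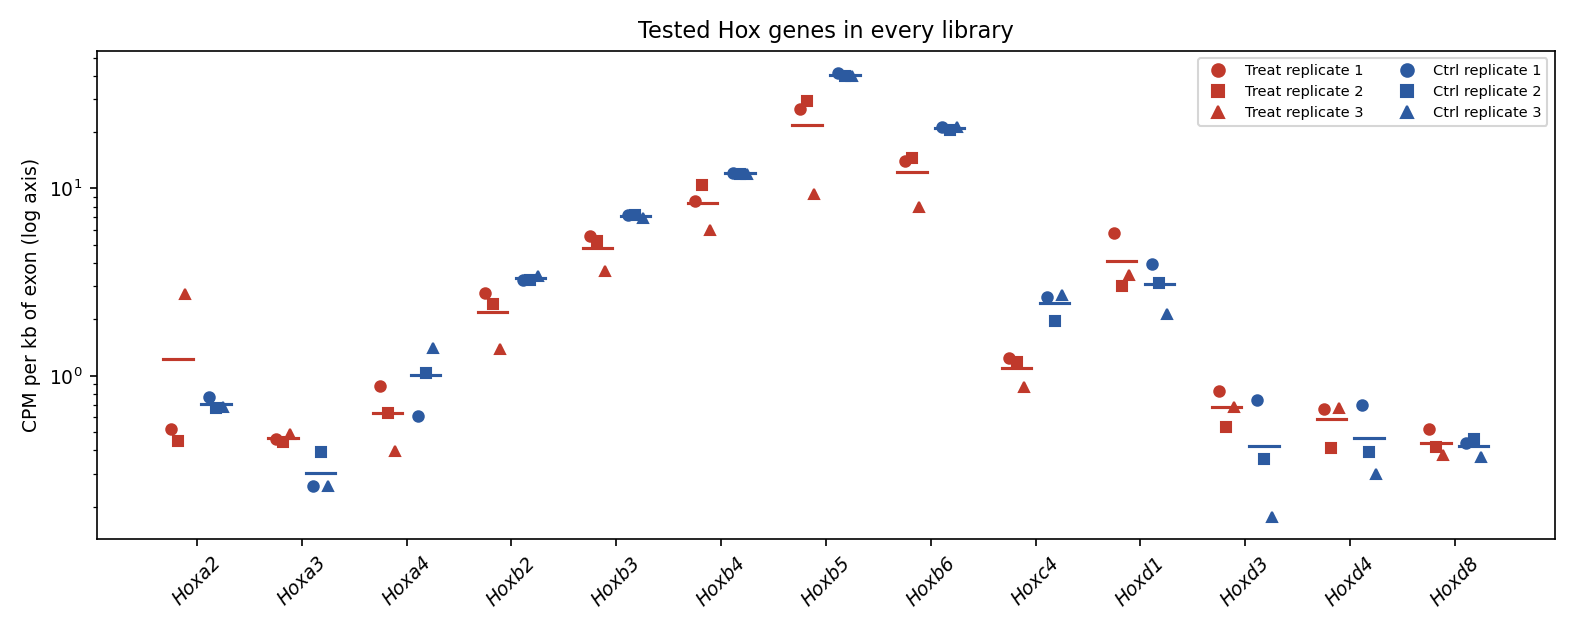
Level in CPM per kilobase of exon (log axis) of tested Hox genes in each library, with treated libraries left of control libraries. The treated points of Hoxb2 to Hoxb6 and Hoxc4 lie below all control points, and treated replicate 3 is the lowest of them.

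In the other clusters the highest genes were Hoxd1, Hoxc4 and, through 1 library, Hoxa2. Hoxd1, a group 1 gene known in the mouse for its part in the wiring of nociceptive sensory neurons, had 361, 162 and 81 counts in treated and 128, 152 and 59 in control libraries. Its level was 5.77, 3.03 and 3.46 CPM per kilobase in treated and 3.94, 3.14 and 2.14 in control ganglia. The groups overlapped, with treated replicate 1 above all others. The log2 fold change was 0.41 ± 0.32 (SE, n = 3 per group, edgeR unadjusted p = 0.240, adjusted p = 0.779). Leaving out each library in turn gave 0.06 to 0.63.

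Hoxc4, the group 4 gene of the Hoxc cluster, had 108, 87 and 28 counts in treated and 118, 131 and 103 in control libraries. Its level was 1.25, 1.18 and 0.867 CPM per kilobase in treated and 2.63, 1.96 and 2.71 in control ganglia, without overlap. It had the smallest p of the members, with a log2 fold change of -1.13 ± 0.26 (SE, n = 3 per group, edgeR unadjusted p = 0.00292, adjusted p = 0.595). The DESeq2 Wald test gave an adjusted p of 0.0452 for it, while over the edgeR and limma alternatives and DESeq2 together the adjusted p ran from 0.0452 to 0.995. Without treated replicate 3 the log2 fold change was -0.99. Its neighbour Hoxc5, too low to be tested, pointed the same way, with 3, 2 and 3 counts in treated and 7, 23 and 18 in control libraries. The ratio of its summed counts, relative to TMM-scaled library sizes (trimmed mean of M values), was 0.130, with a 95% exact binomial interval of 0.0530 to 0.276 that covers counting error only. Summed over the Hoxc cluster, the level was 1.32 ± 0.00718 CPM per kilobase in treated and 2.94 ± 0.457 in control ganglia. The small treated SD does not hold for single genes. In treated replicate 3 the sum held 0.867 from Hoxc4 and 0.309 from Hoxc8, a gene with 11 counts there.

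Hoxa2, which in the mouse sets the identity of the second pharyngeal arch, had 31, 23 and 61 counts in treated and 24, 31 and 18 in control libraries. That was 0.520, 0.451 and 2.73 CPM per kilobase in treated and 0.775, 0.672 and 0.685 in control ganglia, so treated replicate 3 was above all other libraries and the other treated libraries were below all controls. The log2 fold change was 0.75 ± 0.73 (SE, n = 3 per group, edgeR adjusted p = 0.813) and -0.54 without treated replicate 3. Hoxa3, needed in the mouse for the thymus and parathyroid glands and for the glossopharyngeal nerve, was the 1 gene with every treated library above every control library, at 0.460, 0.446 and 0.489 against 0.257, 0.390 and 0.258 CPM per kilobase. Its log2 fold change was 0.61 ± 0.33 (SE, n = 3 per group, edgeR unadjusted p = 0.10, adjusted p = 0.742), and annotated antisense genes cover 25.4% of its exon bases.

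A further 4 tested genes were low and did not separate the groups. Hoxa4 averaged 0.637 ± 0.239 CPM per kilobase in treated and 1.02 ± 0.394 in control ganglia, with a log2 fold change of -0.64 ± 0.49. Hoxd3 averaged 0.682 ± 0.149 in treated and 0.425 ± 0.287 in control ganglia (0.68 ± 0.52). Hoxd4 averaged 0.585 ± 0.148 in treated and 0.463 ± 0.210 in control ganglia (0.33 ± 0.47). Hoxd8, the 1 tested gene beyond group 6, averaged 0.439 ± 0.0739 in treated and 0.424 ± 0.0484 in control ganglia (0.06 ± 0.39). The last 3 values in parentheses are log2 fold changes with SE, and the edgeR adjusted p of these 4 genes was 0.777 to 0.980.

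By level, the order in control ganglia was Hoxb5, Hoxb6, Hoxb4 and Hoxb3, whose libraries did not overlap between neighbours. Hoxb2, Hoxd1 and Hoxc4 followed, and the control libraries of neighbours overlapped. In treated ganglia the first 4 kept the same order of means, and the same order within every library. Across different libraries the treated values of Hoxb5 and Hoxb6 overlapped, as did those of Hoxb6 and Hoxb4, through the low values of treated replicate 3. Hoxb3 and Hoxd1, at 4.81 ± 1.06 and 4.09 ± 1.47 CPM per kilobase in treated ganglia, also overlapped, and Hoxd1 was above Hoxb3 in treated replicate 1.

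Against all genes, no Hox gene was called: 0 of 14 members passed an edgeR adjusted p of 0.05, and of all 16019 tested genes 0% passed (smallest adjusted p 0.179). At an unadjusted p under 0.05 there were 1068 genes, and limma-voom also called 0. At an unadjusted p under 0.05, 4 members (Hoxc4, Hoxb6, Hoxb3 and Hoxb4) were lower in treated ganglia, where 2.67% of all genes were, and 0 were higher, where 4.0% of all genes were. Treated libraries lay wholly below control libraries for 6 members (Hoxb2 to Hoxb6 and Hoxc4), as for 7.63% of all genes, and wholly above for 1 member, as for 7.07% of all genes. DESeq2 called 1 member, Hoxc4, and 89 genes or 0.556% of all; 0.15% of all were called lower, as Hoxc4 was. The median log2 fold change was -0.23 over the 14 tested members, 7 of which were negative and 7 positive, and 0.02 over all tested genes. Without treated replicate 3, 16 members were tested and 7 were lower at an unadjusted p under 0.05, where 4.31% of all genes were. The median was then -0.37 over the members and 0.003 over all genes.

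**Figure D3:**
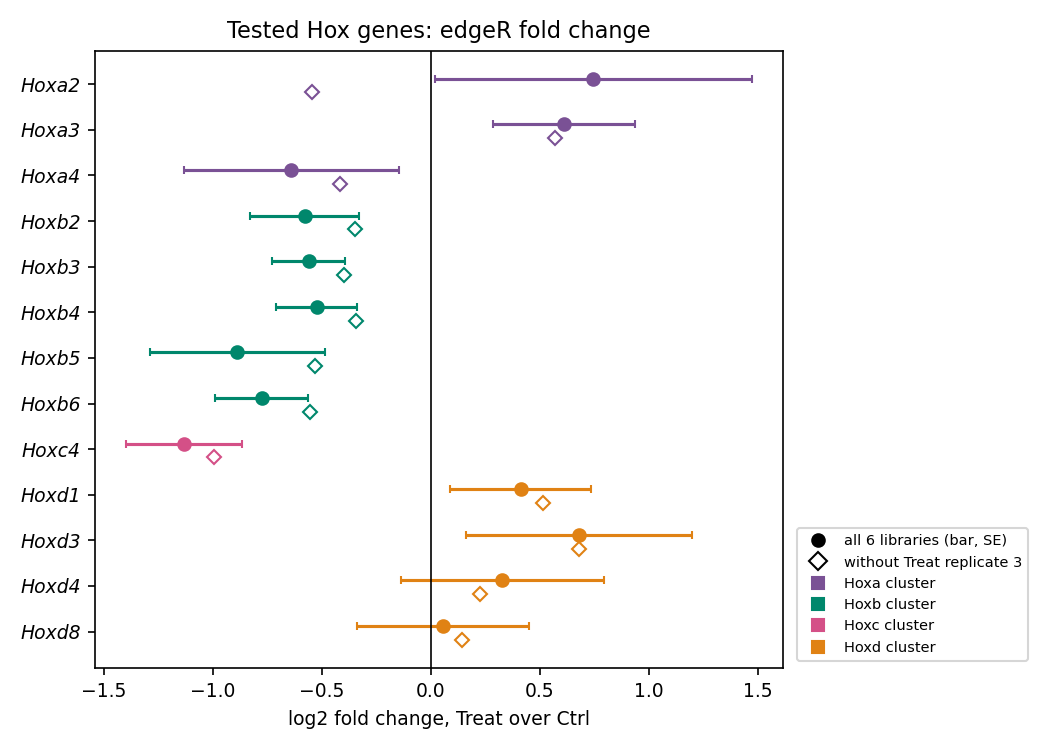
Log2 fold change, treated over control, of tested Hox genes with its SE, beside the value without treated replicate 3. Hoxb2 to Hoxb6 and Hoxc4 lie between -1.13 and -0.52, and Hoxa2 changes sign without treated replicate 3.

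Summed by paralog group, treated and control libraries did not overlap in groups 3 to 6. Group 5, nearly all of it Hoxb5, stood at 21.9 ± 10.6 CPM per kilobase in treated and 40.8 ± 0.785 in control ganglia. Group 6 stood at 12.2 ± 3.68 in treated and 21.2 ± 0.244 in control ganglia, and group 4 at 10.7 ± 2.42 in treated and 16 ± 0.518 in control ganglia. Group 3 stood at 5.96 ± 1.07 in treated and 7.86 ± 0.412 in control ganglia. The log2 ratios of these means for groups 3, 4, 5 and 6 were -0.40, -0.58, -0.89 and -0.80, and without treated replicate 3 they were -0.26, -0.41, -0.54 and -0.57. An exact permutation test of 3 against 3 libraries cannot go below 0.1. Group 1 overlapped, at 4.75 ± 1.51 in treated and 3.38 ± 0.924 in control ganglia, with a log2 ratio of 0.49, or 0.55 without treated replicate 3. Group 2 stood at 3.29, 2.87 and 4.12 in treated replicates 1, 2 and 3, against 4.03, 3.91 and 4.11 in control replicates 1, 2 and 3. It overlapped only through treated replicate 3, the library with the high Hoxa2 level, and its log2 ratio was -0.23, or -0.38 without that library.

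Among the untested genes, a few had counts mainly in 1 group or 1 library. Hoxa6 had 0, 0 and 0 counts in treated and 1, 8 and 1 in control libraries, at least 4.29-fold lower against a limit of 3 counts over the treated group. Hoxb9 had 8, 13 and 0 counts in treated and 1, 1 and 0 in control libraries, a ratio of 8.17 with a counting interval of 2.00 to 71.8, with none in treated replicate 3. Hoxc8 had 11 of its 14 treated counts in treated replicate 3. Such counts are too low to set a difference against the spread between libraries.

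Marker sums of both kinds of vagal sensory neuron did not overlap between the groups, and neither did those of sympathetic neurons and glomus cells. No gene of these 3 lists passed an edgeR adjusted p of 0.05. The summed markers of spinal cord and other central nervous tissue, given above, did not overlap either and were higher in treated libraries. The summed level of 10 nodose markers was 908.6, 970.3 and 482 CPM in treated and 1227, 1219 and 1252 CPM in control libraries. Of 8 tested nodose markers, 8 were lower in treated ganglia and 3 of them had an edgeR unadjusted p under 0.05, where 2.67% of all genes were lower. Their median log2 fold change was -0.65, or -0.37 without treated replicate 3. The marker sum of jugular neurons was 563.2, 356.7 and 654.6 CPM in treated and 317.2, 326.7 and 276.4 CPM in control libraries. Of those 8 markers 7 were higher in treated ganglia, 6 of them at an edgeR unadjusted p under 0.05, where 4.0% of all genes were higher, and Tlx3 was the exception. The sympathetic and glomus cell markers Th, Dbh and Slc6a2 summed to 59.1, 52.5 and 29.2 CPM in treated and 91.7, 74.8 and 73.9 CPM in control libraries. All 3 had negative log2 fold changes, with 1 of them, Dbh, at an edgeR unadjusted p under 0.05, where 2.67% of all genes were lower. Their median was -1.64, and it was -1.34 without treated replicate 3. Pan-neuronal markers summed to 4793, 4573 and 3625 CPM in treated and 4715, 4563 and 4419 CPM in control libraries. Fewer cells of a type and less RNA per cell cannot be told apart in such bulk samples, and the part of these cell types in the Hox values was not tested.

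Expressed as a percentage of the control mean, the summed Hoxb level was 69.3, 74.2 and 34.1 in treated replicates 1, 2 and 3. P2rx2 was at 77.4, 85.8 and 39.6 percent in the same libraries, and Prdm12 at 217.8, 129.8 and 253.1 percent. Snap25, a gene of the synaptic release machinery in all neurons, was itself at 91.7, 81.6 and 55.5 percent. Its log2 fold change, -0.39, or -0.21 without treated replicate 3, was the most negative of the 6 pan-neuronal markers. Of these markers, 3 were negative and 3 positive, up to 0.28 for Rbfox3. Per 100 counts of Snap25, Hoxb5 had 7.53 ± 2.67 counts in treated and 11.2 ± 0.305 in control ganglia (SD, n = 3). Hoxb6 had 3.08 ± 0.358 in treated and 4.10 ± 0.123 in control ganglia on this scale, and Hoxc4 had 0.372 ± 0.0253 in treated and 0.619 ± 0.0854 in control ganglia. For these 3 genes every treated library stayed below every control library, and the same held for Hoxb2 and Hoxb3. Hoxb4 overlapped, with 2.40, 3.24 and 2.76 in treated and 2.97, 3.20 and 3.05 in control libraries. The share of all genes without overlap on this scale was not computed. Hoxd1 had 1.00 ± 0.272 per 100 Snap25 counts in treated and 0.567 ± 0.156 in control ganglia, and the groups overlapped. Per 100 counts of Prdm12 it had 8.61 ± 2.72 in treated and 12.3 ± 1.78 in control ganglia, and the groups overlapped here too. On the Prdm12 scale the ratio of the treated to the control mean was 0.699 for Hoxd1. It was 0.244 for Hoxc4, the lowest, to 0.390 for Hoxb4, the highest, among Hoxb2 to Hoxb6 and Hoxc4.

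**Figure D4:**
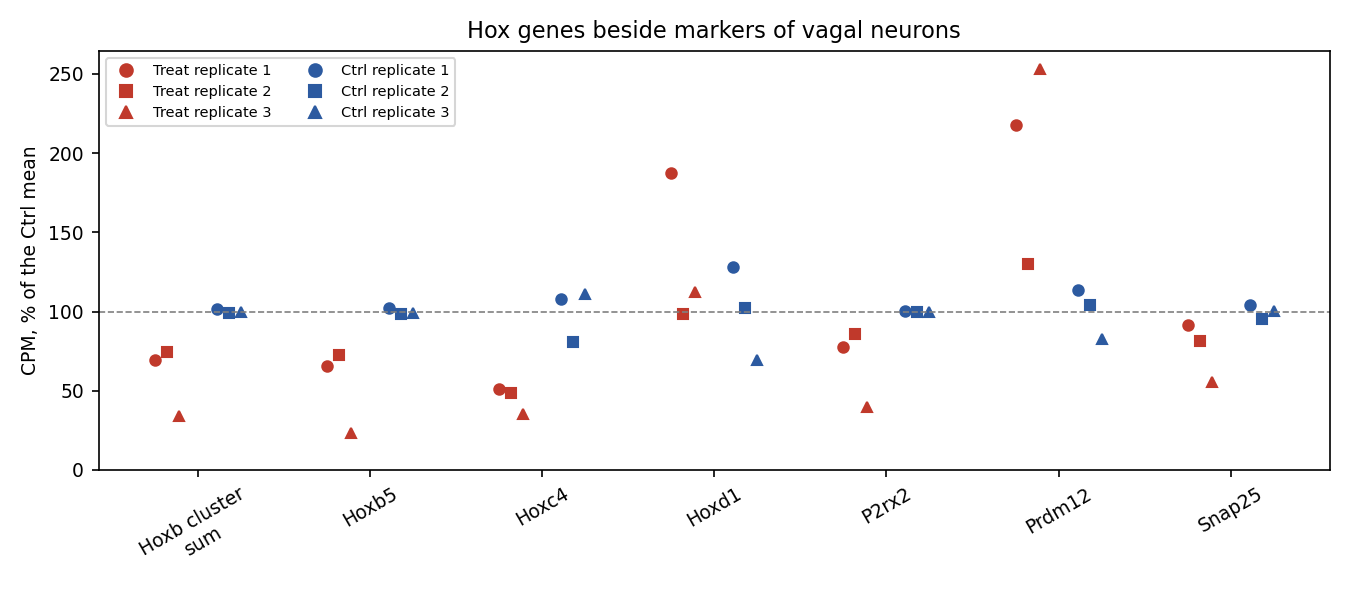
Level of the Hoxb cluster, single Hox genes and neuron markers in each library as a percentage of the control mean, treated libraries left of control libraries. The Hoxb sum, at 69.3, 74.2 and 34.1 percent in treated libraries, is shown beside P2rx2, at 77.4, 85.8 and 39.6 percent, while Prdm12 lies above 100 percent in all treated libraries.

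The partners and regulators of the Hox genes were measured as lists, and no gene of them passed an edgeR adjusted p of 0.05. At an edgeR unadjusted p under 0.05, 4.0% of all genes were higher and 2.67% lower in treated ganglia, the shares to set beside the counts below. All 10 cofactors of the Pbx, Meis and Prep families were tested, 1 of them higher and 1 lower at an unadjusted p under 0.05, with a median log2 fold change of -0.02. Meis2 averaged 16.3 ± 3.51 CPM in treated and 9.69 ± 1.83 CPM in control ganglia, a log2 fold change of 0.74 ± 0.22 (SE, n = 3 per group, edgeR unadjusted p = 0.00927, adjusted p = 0.655). Without treated replicate 3 the log2 fold change of Meis2 was 0.59. Of 18 retinoic acid pathway genes 17 were tested, 2 were higher and 0 lower at an unadjusted p under 0.05. Cyp26a1, an enzyme that degrades retinoic acid, averaged 2.35 ± 2.02 CPM in treated and 0.442 ± 0.253 CPM in control ganglia (log2 fold change 2.46 ± 0.80, edgeR adjusted p = 0.685). Treated replicate 2 held 133 of its 197 treated counts, and the log2 fold change was 1.5 without that library. The receptor gene Rara averaged 16.2 ± 4.09 CPM in treated and 11.5 ± 1.09 CPM in control ganglia (edgeR adjusted p = 0.737). Its log2 fold change was 0.48, or 0.26 without treated replicate 3. The median of the retinoic acid list was 0.32, but -0.07 without treated replicate 3.

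Among 9 upstream hindbrain and caudal factors, 5 were tested and 0 had an unadjusted p under 0.05 in either direction. Gdf11, a growth factor of trunk patterning, averaged 26.2 ± 3.31 CPM in treated and 23.4 ± 0.427 CPM in control ganglia. The posterior regulators Cdx1, Cdx2 and Cdx4 had at most 6 counts in any library. All 26 genes of the Polycomb and trithorax groups, which keep Hox genes silent or active, were tested, and 0 had an unadjusted p under 0.05, with a median log2 fold change of 0.06. Kmt2a, a trithorax-group methyltransferase, was the highest at 341.0 ± 32.2 CPM in treated and 353.5 ± 18.9 CPM in control ganglia. None of the 9 non-coding transcripts of the clusters on the list had enough counts to be tested, and 5 of them, among them the precursors Mir10a and Mir10b, had 0 counts in every library. None of the 6 Hox-related homeobox genes outside the clusters was tested either, for the same reason.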

How the data were processed

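Per the labels, RNA of 6 libraries was prepared with a strand-specific total RNA kit for small inputs and read at 100 bases. Per the submitters' processing notes, bcl2fastq 2.20, STAR 2.7.7a, DESeq2, edgeR and the build mm10 were used. The deposited files hold raw counts of exonic reads per gene. How reads were counted (program, annotation release, strand setting) is not given in the sources used here. Footer lines with read totals were left out of library sizes.

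Counts were fitted with edgeR 4.0.16 (R 4.3.3): filterByExpr with a minimum count of 10, TMM scaling, robust quasi-likelihood F test, and Benjamini-Hochberg adjustment over all 16019 genes tested. SE was computed from the log2 fold change and F. Levels were expressed as CPM per kilobase of the exon union in GENCODE M21, to which 32663 genes were matched. DESeq2 1.42.0 and limma 3.58.1 were alternatives. The fit was tested on simulated data. The members and the gene lists were chosen with earlier results of these data known. Every Hox gene is counted. Full values are given for the highest gene of each cluster, the 5 with the smallest p and the 5 with the highest level. In the lists, genes with the smallest p or the highest CPM were eligible to be named. Untested members, P2rx2 and genes set against Snap25 or Prdm12 were named after their values were seen. Some of the genes and sequences that the rule covers are not reported here. Replicates that share a number were not taken as pairs, since the labels do not say that they share an animal or a day. The data did not meet the preset limit for pairing either, which does not show that the libraries are unpaired.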

Additional observations from a re-analysis of the deposited data

How the results depend on the processing

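The median over tested members was -0.23 and ran from -0.63 to -0.20 when each library was left out in turn, with 15 or 16 members tested then. Genes called numbered 0, and 0 to 9 when each library was left out (7 without treated replicate 1 and 9 without treated replicate 3). They numbered 26 with no filter on low counts, 89 with DESeq2 and 9 with limma-voom and sample weights. DESeq2 called 1 Hox gene, Hoxc4, and every other alternative run called 0. With the replicate number as a block 1 gene was called over all genes and 0 Hox genes. The same-number correlations that bear on pairing were -0.00656, 0.574 and 0.5, and those of libraries with different numbers ran from -0.518 to 0.254. The group 1 to 9 ratios moved by less than the spread between replicates under all alternatives run, and for groups 10 to 13, which have libraries at 0, the ratio was not recomputed. Of 14 tested Hox genes, 12 kept their sign in all 15 settings. Hoxa2 was -0.54 to 1.14 with libraries left out, -0.10 with limma-voom and -0.50 with sample weights. Hoxd8 was -0.10 to 0.14 with libraries left out.

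Among cofactors and regulators, values near 0 changed sign. With libraries left out, Cbx6 ran from -0.134 to 0.012, Kmt2a ran from -0.12 to 0.0219, Meis3 ran from -0.166 to 0.037, Pbx2 ran from -0.0223 to 0.0704 and Rxra ran from -0.199 to 0.123. Sample weights gave Kmt2a 0.031 and Meis3 0.0002, and the block gave Rxra -0.0008. The causes were not tested. The 25 untested members did not pass the count filter of the main fit. With no filter 36 members were fitted and 0 were called. Whether deeper libraries would show a difference in them was not tested.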
